A study of Mus musculus with 18 samples.

Results

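Kidneys of mice with induced cyclin E1 were compared with kidneys of control mice, and the comparison covers every gene of the count table that passed a filter on low counts. Of the 18 RNA-seq libraries of the series, 6 are from whole kidney, 3 per genotype, and 15247 of 24062 genes were tested in them. Mice labelled CCNE-TA carried a Tet-inducible Ccne1 transgene together with rtTA, the reverse tetracycline transactivator, and mice labelled TA carried rtTA without that transgene. All animals were C57BL/6 and had received doxycycline since weaning, at 3 weeks, until they were killed at 4 months of age. The drug lets rtTA bind and switch on the Tet promoter, so both genotypes shared the activator and the drug and differed in the transgene. Which promoter or cell type drives rtTA is not given in the sources used here. The series holds the same groups for liver and lung, which are used below only where kidney is set beside them.

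Cyclin E1 binds and activates CDK2 at the passage from G1 into S phase, where the complex promotes origin licensing and firing, the release of E2F factors from RB proteins and the duplication of centrosomes. Its level is normally periodic, because the FBXW7 ubiquitin ligase marks it for degradation during S phase. Adult kidney is mostly quiescent epithelium, a series of tubule segments with distinct transporters, and p53 and its target p21 are known to hold damaged tubule cells out of the cycle.

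Total counts per kidney library lay between 20352770 and 43202066, and a count of 3 stood for 0.0723 to 0.137 CPM (the count relative to the library's total, scaled with TMM factors within kidney). Markers of kidney were present in every library: Umod of the thick ascending limb stood at 1802, 1487 and 1247 CPM in CCNE-TA 1, 2 and 3 and 1697, 3014 and 2313 CPM in TA 1, 2 and 3 and Lrp2 of the proximal tubule at 1049, 1686 and 1125 against 1065, 1679 and 1484 CPM. Xist, read in cells with an inactive X chromosome, stood at 986, 575 and 1.54 CPM in CCNE-TA 1, 2 and 3 and 1082, 1244 and 2.73 CPM in TA 1, 2 and 3, so libraries 1 and 2 of both genotypes had the pattern of females and libraries 3 that of males. Libraries of equal number also deviated together across genes (correlations of 0.288, 0.453 and 0.325), and the fit with the number as a block is given where it changed a call. CCNE-TA 1 stood apart. It was the highest library for 3162 of the 15247 tested genes but for 13 of 13 genes of antigen presentation and 13 of 13 T and NK cell markers. The labels do not say that the libraries of a group are separate animals, so the p-values measure the spread between these samples.

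Ccne1 rose in kidney and exceeded every other tested gene in fold change. The gene lies on chromosome 7 from 38097984 to 38107490 on the minus strand of GRCm38.p6. It stood at 897, 772 and 485 CPM in CCNE-TA 1, 2 and 3 and 2.58, 2.02 and 1.57 CPM in TA 1, 2 and 3. All 3 CCNE-TA libraries lay far above all 3 TA libraries, CCNE-TA 3 being the lowest of the induced group. The means were 718 ± 211 and 2.06 ± 0.505 CPM (SD, n = 3 per group), and the log2 fold change was 8.45 ± 0.40 (SE; edgeR quasi-likelihood test, Benjamini-Hochberg adjusted p = 7.87e-05). The two-sided exact permutation test gave p = 0.1, the smallest that the 20 splits of 6 libraries allow. Reads of the transgene and of the endogenous gene cannot be told apart under the single gene symbol.

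In edgeR, 2 genes were called higher (0.0131% of those tested) and 0 lower (0%) at an adjusted p under 0.05. At an unadjusted p under 0.05 there were 220 higher (1.44%) and 104 lower (0.682%) genes. The groups did not overlap for 464 genes with higher values in CCNE-TA (3.04%) and for 409 with lower values (2.68%). Of these genes, 159 and 50 differed by at least 2-fold. The other call besides Ccne1 was AA465934, annotated as a long non-coding RNA on chromosome 11 from 83291699 to 83294637. AA465934 stood at 13.3, 17.4 and 14.99 CPM in CCNE-TA 1, 2 and 3 and 2.66, 2.63 and 2.64 CPM in TA 1, 2 and 3, so that the groups were far apart and the TA libraries nearly equal. It rose by 2.53 ± 0.23 on the log2 scale (SE; edgeR adjusted p = 0.0111). The call was kept without CCNE-TA 1, but leaving out any 1 of CCNE-TA 2, CCNE-TA 3, TA 1, TA 2 and TA 3 gave an edgeR adjusted p between 0.0679 and 0.161, and only Ccne1 then passed.

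With the replicate number as a block, 3 genes were called higher (0.0197%) and 0 lower (0%), Cdkn1a being the addition. At an unadjusted edgeR p under 0.05, that fit gave 410 higher and 400 lower genes. A fit with Xist-derived sex as a covariate called the same 3 genes. DESeq2, a second count test, called 24 genes higher (0.167% of the 14337 genes to which it gave an adjusted p) and 4 lower (0.0279%). The 24 comprised the 3 genes above, 5 of the mitotic list and 8 of the spindle list described below, the p53 targets Psrc1, Eda2r and Phlda3, and Saa3, Shcbp1, Dscaml1, BC021614 and 1190002F15Rik. The 4 lower genes were Slc22a8, Gm6300, Sftpa1 and Sftpc. DESeq2 with the block called 48 genes higher (0.321% of 14951) and 47 lower (0.314%), and where it called a named gene that DESeq2 alone did not, its adjusted p is given. In what follows a gene is said to have risen or fallen only where edgeR's adjusted p was under 0.05, and for all other genes the levels are given. Lists of genes are described by the number of members at an unadjusted p under 0.05, by the number whose groups did not overlap, and by the median log2 fold change, which was 0.00 over all tested genes. Where no share stands beside a list count, the share over all tested genes given above for the same measure applies.

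**Figure D1:**
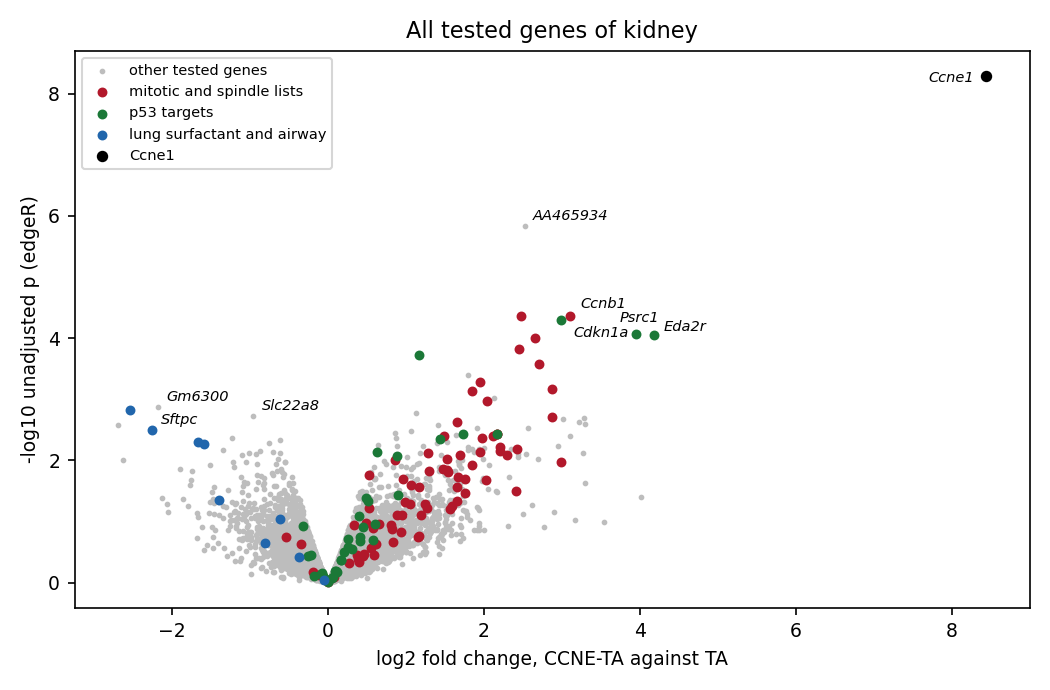
Each point is a tested gene of kidney, with the log2 fold change of CCNE-TA against TA on the horizontal axis and the unadjusted edgeR p on the vertical axis as -log10. Ccne1 stands alone at 8.45, AA465934 at 2.53 is the other call, and the mitotic and spindle genes (red) lie almost wholly to the right of 0 while the lung genes (blue) lie to the left.

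Cyclin E1, its partners and the machinery that degrades it had a median log2 fold change near that of all tested genes, at 0.02. Of 16 tested genes of this list, the groups did not overlap for 4 with higher values (3.04% of all tested genes) and 1 with lower values (2.68%). The 4 were Ccne1, Cdkn1a, Cks1b and Ccne2, and the 1 was Cul1. Cdk2, the kinase that cyclin E activates, stood at 11.6, 13.8 and 14.7 CPM in CCNE-TA 1, 2 and 3 and 15.5, 14.1 and 13.9 CPM in TA 1, 2 and 3. These values overlapped, with a log2 fold change of -0.11 ± 0.19. Fbxw7, the substrate adaptor of the ligase that degrades cyclin E, stood at 27.6, 16.3 and 22.96 against 14.9, 16.4 and 19.7 CPM for the same libraries (0.39). Ccne2, the second E-type cyclin, was read at 1.096, 0.723 and 1.38 against 0.444, 0.626 and 0.671 CPM (0.86 ± 0.48, edgeR unadjusted p = 0.108). Cks1b, a small CDK-binding subunit, differed by 0.64 and the scaffold Cul1 by -0.20. For D-type cyclins, CDK4/6, RB proteins and INK4 inhibitors, 0 of 11 tested members had an unadjusted edgeR p under 0.05, 0 had groups apart, DESeq2 called 0, and the median was 0.01.

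Targets of p53 were higher in CCNE-TA for a subset of the list. p53 is the transcription factor that answers DNA damage, and its targets include cell-cycle brakes and death effectors. Of 38 tested members, 12 had an unadjusted edgeR p under 0.05 and higher values in CCNE-TA (1.44% of all tested genes did) and 0 had lower values (0.682%). The same 12 had groups that did not overlap. The list's median log2 fold change was 0.29. Without CCNE-TA 1, 10 members had an unadjusted p under 0.05 with higher values (1.32% of all genes tested in those 5 libraries) and the median was 0.17.

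Cdkn1a encodes p21, an inhibitor of cyclin E and CDK2 complexes, and is on chromosome 17 from 29090979 to 29100722. It stood at 135, 152 and 58.2 CPM in CCNE-TA 1, 2 and 3 and 14.9, 19.8 and 8.68 CPM in TA 1, 2 and 3. Each CCNE-TA library was above every TA library, and in both genotypes library 3 was the lowest and library 2 the highest. The log2 difference within the numbers was 3.18, 2.94 and 2.74. The log2 fold change was 2.99 ± 0.41 (edgeR adjusted p = 0.156), and with the replicate number as a block it rose by 2.96 ± 0.14 (edgeR adjusted p = 0.00149). The annotated exons of AC167363.2 cover 7.68% of the exon bases of Cdkn1a, and the kit does not mark the strand. Below are the 250 bases before its start, from RefSeq, GRCm38.p6, plus strand, chr17:29090729-29090978; of its 2 listed starts this is the more upstream. They are shown because p53 binds near this gene, and capitals mark 2 matches to the p53 half-site consensus, which lie 73 and 51 bases before the start.
Cdkn1a: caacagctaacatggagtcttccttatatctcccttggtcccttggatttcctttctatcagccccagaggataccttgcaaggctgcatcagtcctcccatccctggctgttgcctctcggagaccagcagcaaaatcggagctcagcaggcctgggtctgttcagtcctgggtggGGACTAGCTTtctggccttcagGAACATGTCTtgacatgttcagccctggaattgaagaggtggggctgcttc
A p53 half-site was found in 8 of the 29 p53 target genes with a window of this kind and in 7.13% of all 32851 windows of this length. A match is a description of the letters and not a bound site.

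Among p53 targets, the next by p were Psrc1, Eda2r and Phlda3. Psrc1, a microtubule-binding protein of the spindle, stood at 22.6, 6.85 and 7.75 CPM in CCNE-TA 1, 2 and 3 and 1.11, 0.892 and 0.358 CPM in TA 1, 2 and 3, a difference of 3.95 ± 0.59 on the log2 scale (edgeR adjusted p = 0.19; DESeq2 adjusted p = 4.76e-10). Eda2r, a receptor of the TNF receptor family, stood at 7.12, 4.94 and 2.05 against 0.178, 0.169 and 0.447 CPM for the same libraries, a difference of 4.18 ± 0.62 on that scale (edgeR adjusted p = 0.19; DESeq2 adjusted p = 1.95e-08). Groups were apart for both genes, and CCNE-TA 1 was the highest library. In the fit of all 18 libraries, Eda2r passed with an adjusted p of 0.0313 and AA465934 did not (0.134).

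Phlda3, which competes with AKT for membrane lipids, stood at 42.8, 40.2 and 36.9 against 21.6, 15.1 and 16.6 CPM (1.17 ± 0.19; edgeR adjusted p = 0.286, DESeq2 adjusted p = 0.000413). Its CCNE-TA libraries were close to each other and above all TA libraries. Aen, an exonuclease of the apoptotic response, stood at 50.3, 51.6 and 59.98 against 30.1, 33.2 and 41.03 CPM (0.63 ± 0.18), and Plk2, a polo-like kinase, at 22.8, 15.7 and 30.7 against 14.3, 10.6 and 12.6 CPM (0.89 ± 0.26). Gtse1 and Ckap2, which like Psrc1 encode microtubule-associated proteins of dividing cells, differed by 1.73 and 2.17. The death effector Bbc3 differed by 0.90, the stress cytokine Gdf15 by 1.44, and Ccng1 and Zmat3 by 0.52 and 0.49. The adjusted p-values of DESeq2 with the block were 0.0361 for Aen, 0.043 for Plk2 and 0.000216 for Gdf15.

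Other classic targets overlapped between the groups. Mdm2, the ubiquitin ligase of p53, differed by 0.26 ± 0.21, and Bax, which permeabilises mitochondria, stood at 111, 84.9 and 107 against 82.6, 78.9 and 92.3 CPM (0.25 ± 0.18). Trp53 itself stood at 47.99, 31.8 and 36.5 against 39.6, 31.2 and 42.1 CPM (0.04 ± 0.21). For these 3 genes the edgeR unadjusted p was 0.26, 0.192 and 0.844.

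**Figure D2:**
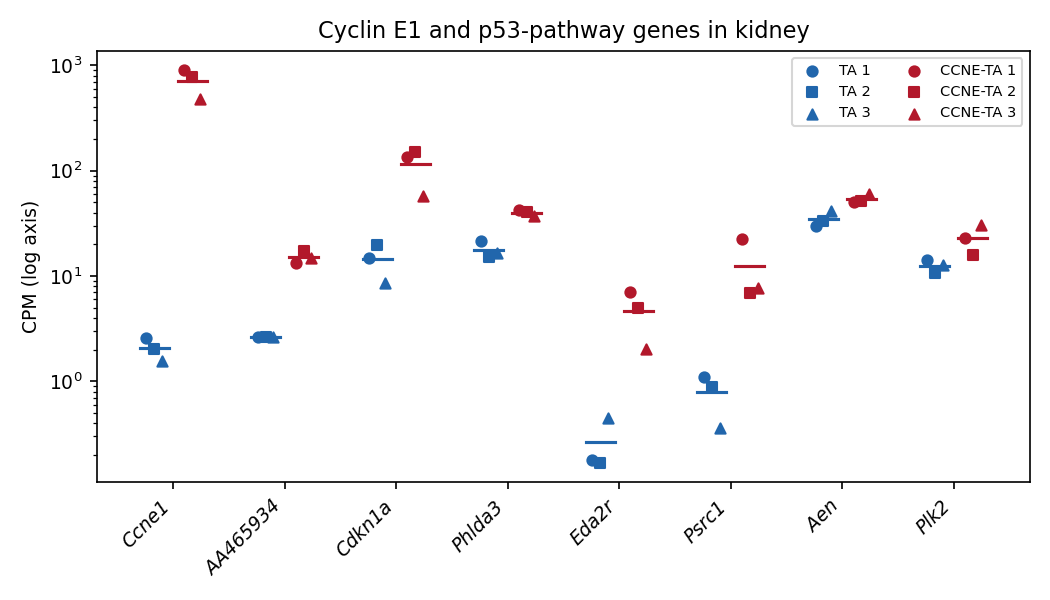
CPM on a log axis in each kidney library for Ccne1, AA465934 and 6 p53 targets, with TA in blue, CCNE-TA in red, symbols for the library number and a bar for the mean of each group (n = 3). The groups are apart for all 8 genes, and for Cdkn1a the order of library numbers is the same in both genotypes.

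Among genes of mitosis, those with higher values in all 3 CCNE-TA libraries made up 14 of 25 tested, and CCNE-TA 1 was the highest library for 19. The list of cyclins, kinases and anaphase-promoting complex (APC/C) factors of mitosis had 25 tested members, of which 14 had an unadjusted edgeR p under 0.05 with higher values in CCNE-TA (1.44% of all tested genes) and 0 with lower values (0.682%). The same number, 14, had groups apart with higher values (3.04% of all tested genes) and 0 with lower ones (2.68%). The median log2 fold change was 1.25, and DESeq2 called 5 members higher (0.167% of its genes). The median difference between libraries of equal number was 2.05, 0.45 and 1.06 for numbers 1, 2 and 3. Without CCNE-TA 1, 10 members had an unadjusted p under 0.05 with higher values (1.32% of all genes tested in those 5 libraries), and the median was 0.81. For 15 of the 25, CCNE-TA 2 and CCNE-TA 3 were then above all TA libraries, as were 8.38% of all tested genes.

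Ccnb1 and Cdk1 form the kinase that drives entry into mitosis. Ccnb1 stood at 6.26, 3.56 and 4.07 CPM in CCNE-TA 1, 2 and 3 and 0.355, 0.675 and 0.537 CPM in TA 1, 2 and 3, a difference of 3.11 ± 0.42 on the log2 scale (edgeR adjusted p = 0.156; DESeq2 adjusted p = 1.29e-08). Cdk1 stood at 25.5, 8.85 and 8.33 against 2.49, 2.34 and 1.66 CPM for the same libraries (2.71 ± 0.47; edgeR adjusted p = 0.368, DESeq2 adjusted p = 4.47e-06). Both had groups well apart, with low levels in every TA library. Cdc20, the activator of APC/C at anaphase, stood at 17.99, 8.91 and 13.7 against 1.24, 3.18 and 1.88 CPM (2.66 ± 0.40; DESeq2 adjusted p = 1.02e-07). Birc5, the survivin subunit of the chromosomal passenger complex, stood at 10.5, 5.87 and 8.97 against 1.598, 1.76 and 1.12 CPM (2.48 ± 0.34; DESeq2 adjusted p = 1.29e-08). In Cdc20 and Birc5, CCNE-TA 1 was the highest and CCNE-TA 2 the lowest of the induced libraries, and all 3 were above every TA library.

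The B-type cyclin Ccnb2 differed by 2.04, the checkpoint kinase Bub1 by 2.21, the centrosomal kinase Nek2 by 1.49 and cyclin A2 (Ccna2) by 1.07, all with groups apart. Plk1 stood at 12.6, 2.89 and 5.16 against 4.53, 2.12 and 2.01 CPM and Aurka at 5.11, 3.61 and 2.15 against 1.11, 2.31 and 2.42 CPM, and in both the groups overlapped (1.25 ± 0.56 and 0.89 ± 0.45). Ube2c, the ubiquitin-conjugating enzyme of APC/C, stood at 37.7, 11.05 and 5.76 against 12.7, 8.698 and 2.59 CPM, also with overlap; 22.8% of its exon bases are shared with Tnnc2, so some of its reads may belong to that gene. For Nek2 and Ube2c, DESeq2 with the block gave adjusted p-values of 0.036 and 0.0472.

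The 250 bases before the RefSeq start (GRCm38.p6) of Cdc20, Cdk1 and Ccnb1, all on the minus strand, are printed because cell-cycle genes carry known promoter elements. Capitals mark the cell-cycle homology region, CHR (TTTGAA or TTCGAA), the CCAAT box (CCAAT) and the E2F motif (TTCCCGC or TTGGCGC), each searched on both strands. An E2F match can overlap a CCAAT match, as it does in Ccnb1. The windows are chr4:118437344-118437593, chr10:69352913-69353162 and chr13:100786487-100786736.
Cdc20: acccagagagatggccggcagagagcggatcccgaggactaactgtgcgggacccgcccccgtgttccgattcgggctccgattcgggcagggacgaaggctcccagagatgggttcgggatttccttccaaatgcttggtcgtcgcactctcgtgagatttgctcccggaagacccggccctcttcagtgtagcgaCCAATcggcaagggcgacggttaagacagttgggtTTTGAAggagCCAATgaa
Cdk1: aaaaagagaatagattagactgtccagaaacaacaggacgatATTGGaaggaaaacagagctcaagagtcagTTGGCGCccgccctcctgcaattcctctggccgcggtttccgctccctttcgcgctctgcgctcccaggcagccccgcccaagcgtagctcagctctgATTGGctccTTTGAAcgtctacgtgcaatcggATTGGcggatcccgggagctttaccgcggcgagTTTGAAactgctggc
Ccnb1: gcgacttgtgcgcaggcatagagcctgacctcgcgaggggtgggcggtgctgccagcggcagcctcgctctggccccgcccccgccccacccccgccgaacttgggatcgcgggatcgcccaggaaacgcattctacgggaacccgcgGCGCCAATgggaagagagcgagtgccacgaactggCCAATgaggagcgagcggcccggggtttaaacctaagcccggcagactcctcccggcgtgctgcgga
Cdc20 held CCAAT boxes 53 and 8 bases and a CHR match at 18 bases before its start. Cdk1 held CHR matches at 71 and 15 bases and CCAAT boxes at 208, 80 and 48 bases before the start, with an E2F match at 178 bases. Ccnb1 held CCAAT boxes 99 and 67 bases before its start and no CHR letters in this window. Of the 22 mitotic list members with a window, 17 held a CCAAT box and 7 a CHR. Across all 32851 windows the shares were 33.9% and 17.1%. The window of AA465934, chr11:83291449-83291698 on the plus strand, is shown for the other called gene and held 2 CCAAT boxes.
AA465934: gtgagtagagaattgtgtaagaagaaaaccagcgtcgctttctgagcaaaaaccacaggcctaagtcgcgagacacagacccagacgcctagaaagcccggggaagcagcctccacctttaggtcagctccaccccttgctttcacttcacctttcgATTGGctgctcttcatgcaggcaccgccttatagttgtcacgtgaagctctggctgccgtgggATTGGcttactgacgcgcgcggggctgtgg

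Spindle, kinetochore and cytokinesis genes gave a similar picture over a longer list. Of 53 tested members, 29 had an unadjusted edgeR p under 0.05 with higher values (1.44% of all tested genes) and 0 with lower values (0.682%), where DESeq2 called 8 higher (0.167%) and 0 lower (0.0279%). The groups were apart for 25 with higher values (3.04% of all tested genes) and for 1, the cytokinesis kinase Cit, with lower values (2.68%; -0.53). The list's median was 1.30, and within numbers 1, 2 and 3 it was 2.06, 0.52 and 0.85. CCNE-TA 1 was the highest library for 48 of the 53. Without it, 17 members had an unadjusted p under 0.05 with higher values (1.32% of all genes tested in the 5 libraries) and the median was 0.62.

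Tpx2, a spindle assembly factor that activates Aurora A, stood at 9.82, 5.41 and 4.58 CPM in CCNE-TA 1, 2 and 3 and 0.977, 1.47 and 1.12 CPM in TA 1, 2 and 3 (2.45 ± 0.39; edgeR adjusted p = 0.257, DESeq2 adjusted p = 4.47e-06). Mki67, the proliferation antigen that coats mitotic chromosomes, stood at 41.1, 15.4 and 20.3 against 6.26, 5.37 and 8.23 CPM for the same libraries (1.95 ± 0.37; DESeq2 adjusted p = 0.000413). Nusap1, a microtubule-bundling protein, stood at 7.72, 5.99 and 6.88 against 1.02, 2.22 and 2.46 CPM (1.84 ± 0.37). In Nusap1 the 3 CCNE-TA libraries were close to each other, whereas in Mki67 CCNE-TA 1 was far above the other induced libraries.

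Top2a, the topoisomerase that untangles chromosomes before segregation, stood at 30.2, 5.49 and 5.28 against 2.04, 2.99 and 2.51 CPM (2.43 ± 0.68), where CCNE-TA 1 was far above CCNE-TA 2 and CCNE-TA 3. Prc1, a cross-linker of the central spindle, stood at 12.8, 4.54 and 2.72 against 1.82, 1.33 and 1.297 CPM (2.17 ± 0.56). Kif4, a chromosome-bound kinesin, stood at 5.11, 1.88 and 2.53 against 0.0888, 0.506 and 0.671 CPM (2.87 ± 0.67); 15.1% of its exon bases are shared with Pdzd11. The groups were apart in these 3 genes, and DESeq2 gave adjusted p-values of 0.0227, 0.034 and 0.00498. Of a gene signature of chromosomal instability, 25 of 25 tested genes had a log2 fold change above 0, as did 7731 of all 15247 tested genes. Groups were apart with higher values for 11 (3.04% of all tested genes). An unadjusted edgeR p under 0.05 with higher values was found for 10 (1.44%). The median was 0.61 (0.31 without CCNE-TA 1). Cdk1, Ccnb2, Tpx2, Prc1, Top2a and others of this signature are also in the mitotic or spindle list.

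**Figure D3:**
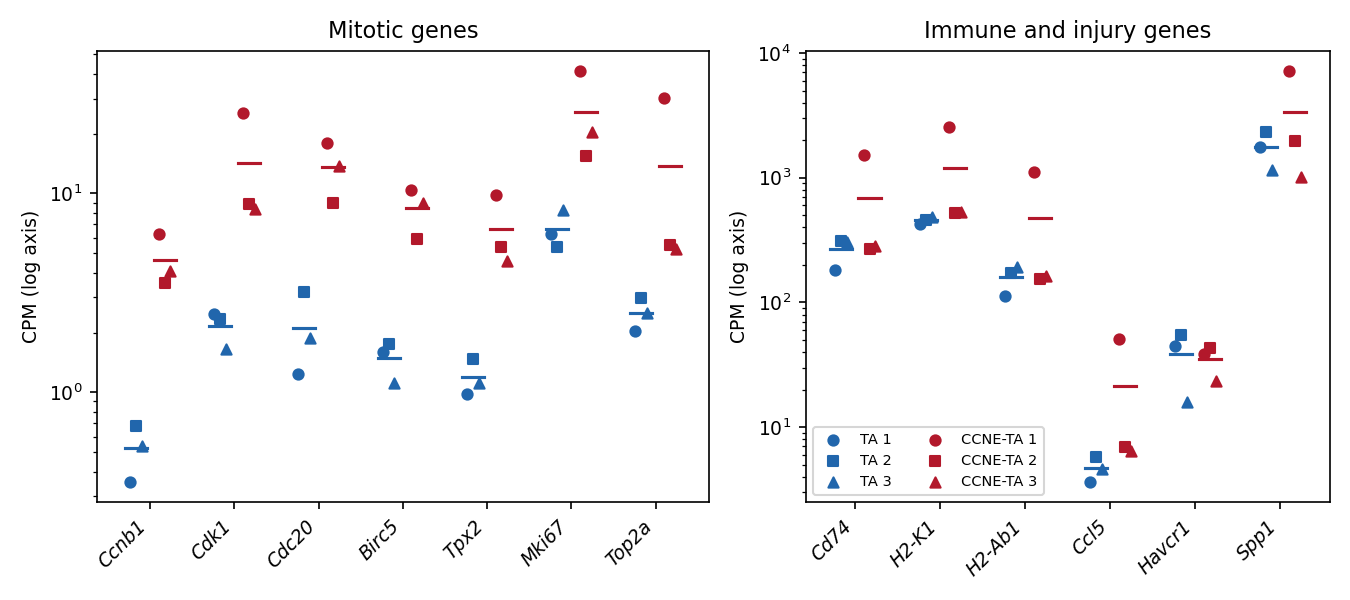
CPM on log axes in each kidney library, with mitotic genes on the left and immune and injury genes on the right, TA in blue, CCNE-TA in red, symbols for the library number and bars for group means (n = 3). Every CCNE-TA library is above every TA library for the 7 mitotic genes, whereas for Cd74, H2-Ab1 and Spp1 only CCNE-TA 1 is above the TA libraries and Havcr1 overlaps.

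Genes of the G1/S transition and of DNA replication had smaller medians than those of mitosis, and none was called. Of 38 tested G1/S and E2F targets, 8 had groups apart with higher values (3.04% of all tested genes). An unadjusted edgeR p under 0.05 with higher values was found for 5 (1.44%). By either count 0 were lower, DESeq2 called 0, and the median was 0.35. Leaving out CCNE-TA 1 gave 2 members at an unadjusted p under 0.05 with higher values (1.32% of all tested genes) and a median of 0.27. Of 30 genes of origin licensing, firing and the fork, 10 had groups apart with higher values (3.04%) and 7 an unadjusted p under 0.05 (1.44%). The median of this licensing list was 0.43. Mcm5, Cdt1, Mcm3 and others of it are also in the G1/S list, so the counts of the lists overlap. Without CCNE-TA 1, it had 4 members at an unadjusted p under 0.05 and a median of 0.25. Mcm5, a subunit of the replicative helicase, stood at 10.5, 8.12 and 9.29 CPM in CCNE-TA 1, 2 and 3 and 3.197, 5.06 and 5.01 CPM in TA 1, 2 and 3 (1.07 ± 0.27, edgeR unadjusted p = 0.00335), with groups apart. Cdt1, which loads the helicase on origins, stood at 10.6, 7.72 and 14.4 against 4.17, 5.23 and 6.85 CPM (1.01 ± 0.30).

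Pcna, the sliding clamp, overlapped at 39.3, 43.8 and 28.2 against 27.97, 41.1 and 39.7 CPM (0.03 ± 0.23), and Rrm2, a subunit of ribonucleotide reductase, at 13.4, 6.25 and 5.19 against 4.35, 5.86 and 4.43 CPM (0.75 ± 0.38). E2f1 stood at 6.62, 5.002 and 4.48 against 3.197, 4.67 and 5.15 CPM (0.30 ± 0.30), and over 10 genes of the E2F and DP family the median was 0.11, with 0 at an unadjusted edgeR p under 0.05 and 0 called by DESeq2.

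Of 35 genes of homologous recombination, the Fanconi pathway and checkpoints, 9 had groups apart with higher values (3.04% of all tested genes). An unadjusted edgeR p under 0.05 with higher values was found for 4 (1.44%), and the median was 0.26. Leaving out CCNE-TA 1 gave 2 members at such a p and a median of 0.21. The helicase Blm stood at 3.06, 1.68 and 2.05 CPM in CCNE-TA 1, 2 and 3 and 0.622, 1.01 and 0.805 CPM in TA 1, 2 and 3 (1.45 ± 0.43). Every CCNE-TA library was above every TA library. Brca1, a tumour suppressor of this pathway, differed by 1.51. Of 50 listed replication-dependent histones only 8 passed the filter, and their median was 0.08. Of these 8, 1 had an unadjusted edgeR p under 0.05 with higher values (1.44% of all tested genes) and 1 had groups apart with lower values (2.68%).

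The gene lists differed by degree in how far the difference lay in number 1, which had the largest median in each list of this paragraph. The median of the p53 targets within numbers 1, 2 and 3 was 0.55, 0.17 and 0.22, and that of the licensing list 0.66, 0.21 and 0.32. For antigen presentation the same 3 medians were 2.57, -0.09 and -0.11, for T and NK cell markers 2.67, -0.36 and -0.32, and for macrophages and monocytes 2.15, -0.28 and -0.07. Interferon-stimulated genes gave 0.82, 0.05 and 0.28. In bulk tissue a change in the number of cells of a type and a change in RNA per cell cannot be told apart.

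**Figure D4:**
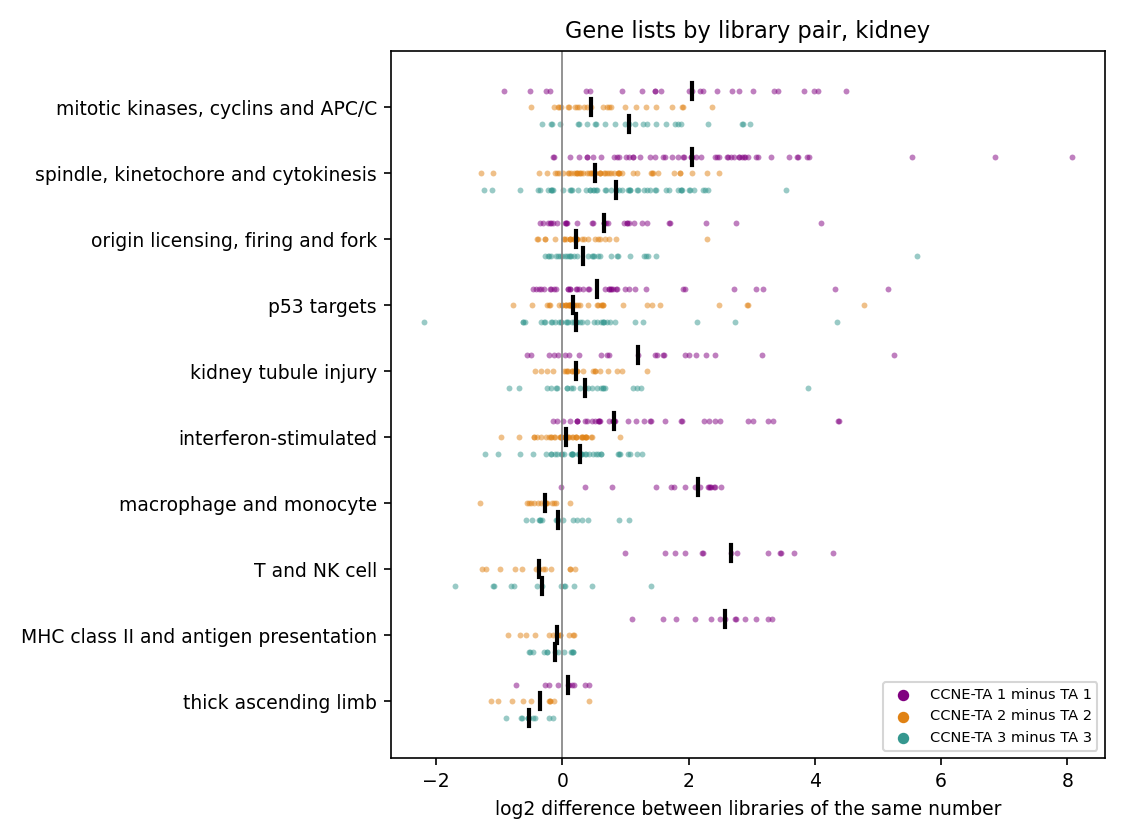
Log2 difference between the CCNE-TA and TA kidney library of the same number for each tested member of 10 gene lists, with 1 line of points and 1 colour per number and a black tick at the median. Mitotic and spindle lists have medians above 0 for all 3 numbers, while the macrophage, T and NK cell and antigen presentation lists have medians above 2 for number 1 only.

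Genes of antigen presentation were high in CCNE-TA 1 alone. Cd74, the invariant chain of MHC class II, stood at 1513, 269.6 and 284 CPM in CCNE-TA 1, 2 and 3 and 181, 313 and 307 CPM in TA 1, 2 and 3. Its log2 fold change of 1.37 ± 0.65 (edgeR adjusted p = 0.999) therefore described 1 library. H2-Ab1, a class II chain, stood at 1121, 155 and 163 against 113, 173 and 193 CPM for the same libraries and had a log2 fold change of -0.00016 without CCNE-TA 1. H2-K1, a class I heavy chain, stood at 2547, 518 and 534 against 428, 462 and 483 CPM (1.39 ± 0.58); its groups did not overlap, but CCNE-TA 2 and CCNE-TA 3 were little above the TA libraries. Class I genes resemble each other, so how the counting split their reads is uncertain. Of 13 tested members of this list, 1 had groups apart (3.04% of all tested genes) and 1 an unadjusted edgeR p under 0.05 (1.44%), with higher values. DESeq2 called 0, and the median was 1.14 (0.05 without CCNE-TA 1).

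Immune cell markers followed the same library. The summed level of 15 T and NK cell markers, of which 13 were tested, was 64.7 CPM in CCNE-TA 1, 13.0 and 14.8 in the other CCNE-TA libraries and 11.2 to 17.9 in TA. That of 16 macrophage and monocyte markers was 631 CPM in CCNE-TA 1 and 274 to 336 CPM in the other 5 libraries. Ccl5, a chemokine of T cells, stood at 50.7, 6.91 and 6.405 against 3.64, 5.78 and 4.65 CPM and the interferon-induced chemokine Cxcl10 at 66.3, 6.303 and 4.36 against 3.15, 3.33 and 5.995 CPM. Groups were apart for 0 of the 13 and 0 of the 16 markers, and 0 and 1 (Laptm5, 1.02) had an unadjusted edgeR p under 0.05, with DESeq2 calling 0 in either list. Over 7 B cell markers the median was -0.76. CCNE-TA 1 was also the highest library for 19 of 25 mitotic genes, and the part of these immune transcripts in that result was not tested.

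Interferon and inflammatory genes were mixed. Of 39 tested interferon-stimulated genes, 3 (Irf7, Bst2 and Tap1) had groups apart with higher values, against 3.04% of all tested genes. An unadjusted edgeR p under 0.05 with higher values was found for 5 (1.44%). DESeq2 called 0, and the median was 0.54 (0.11 without CCNE-TA 1). Irf7, the master regulator of type I interferon, stood at 122, 78.5 and 91.3 CPM in CCNE-TA 1, 2 and 3 and 59.5, 60.7 and 37.9 CPM in TA 1, 2 and 3 (0.88 ± 0.25, edgeR unadjusted p = 0.00578), with every CCNE-TA library above TA. Bst2, the tetherin antiviral factor, stood at 114, 83.3 and 64.6 against 50.6, 60.9 and 44.5 CPM (0.75 ± 0.24). Of 18 genes of NF-kappaB and inflammation, 2 had groups apart with higher values (3.04% of all tested genes), Ccl5 and Ccl2. All 18 had a log2 fold change above 0, with a median of 0.53, and CCNE-TA 1 was the highest library for 16. Without CCNE-TA 1 the median was -0.016, with 9 genes above 0 and 9 below. Ccl2, which attracts monocytes, stood at 7.17, 1.42 and 2.08 against 0.755, 0.217 and 0.895 CPM (2.54 ± 0.75). Saa3, an acute-phase protein, stood at 6.76, 1.94 and 2.15 against 0.178, 0.795 and 0.268 CPM (3.02 ± 0.71; edgeR adjusted p = 0.999, DESeq2 adjusted p = 0.00536), low in all TA libraries; it belongs to a family of similar genes. For Irf7, Bst2 and Ccl2, DESeq2 with the block gave adjusted p-values of 0.0026, 0.0315 and 0.00736.

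Markers of tubule injury were mixed, and edgeR called none of them. Of 23 tested, 6 had an unadjusted edgeR p under 0.05 with higher values (1.44% of all tested genes) and 5 had groups apart (3.04%). The median was 0.52 and DESeq2 called 0. Without CCNE-TA 1, 3 had an unadjusted p under 0.05 and the median was 0.19. Havcr1, which encodes the kidney injury molecule KIM-1 of the proximal tubule, stood at 38.4, 43.2 and 23.3 CPM in CCNE-TA 1, 2 and 3 and 44.5, 54.6 and 15.9 CPM in TA 1, 2 and 3, with the groups fully overlapping (-0.14 ± 0.41, edgeR unadjusted p = 0.751). Lcn2, which encodes the injury marker NGAL, stood at 19.2, 9.37 and 9.03 against 6.75, 12.7 and 6.53 CPM (0.52 ± 0.38). Spp1, osteopontin, reached 7145, 1974 and 1022 against 1769, 2332 and 1157 CPM, so that CCNE-TA 1 alone was high.

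The members with groups apart were Gdf15, C3, Krt20, Timp1 and Fgg. C3, the central complement protein, stood at 306, 125 and 97.7 against 70.6, 68.1 and 44.96 CPM (1.52 ± 0.41, edgeR unadjusted p = 0.00494; DESeq2 with the block, adjusted p = 5.38e-07). Krt20, a keratin of injured tubules, stood at 3.88, 3.41 and 6.95 against 1.69, 1.76 and 0.447 CPM (1.85 ± 0.53), and here CCNE-TA 3 was the highest library. Timp1, an inhibitor of matrix proteases, stood at 8.54, 1.27 and 1.99 against 0.932, 0.771 and 1.25 CPM (1.99 ± 0.70), highest in CCNE-TA 1. Of 19 fibroblast and matrix genes, 3 (Acta2, Mmp2 and Col4a2) had groups apart with higher values, against 3.04% of all tested genes. For 0 of the 19 was the unadjusted edgeR p under 0.05, DESeq2 called 0, and the median was 0.21. Acta2, smooth muscle actin, stood at 132, 114 and 129.9 against 92.9, 91.6 and 106 CPM (0.37 ± 0.17).

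Markers of the thick ascending limb, the segment that dilutes the urine, had a median below 0 for numbers 2 and 3 and not for number 1. All 10 tested members had a log2 fold change below 0 in the comparison of 3 with 3, with a median of -0.25, of which 2 had groups apart and 1 had an unadjusted edgeR p under 0.05 (2.68% and 0.682% of all tested genes). The median within numbers 1, 2 and 3 was 0.09, -0.36 and -0.53. Without CCNE-TA 1 the median was -0.44, 9 of 10 members were below 0 and 7 had groups apart with lower values, against 8.49% of all tested genes in those 5 libraries. Without TA 1 the median was -0.25, 9 of 10 members were below 0, 3 had groups apart with lower values (9.10%) and 2 had an unadjusted p under 0.05 (1.25%). Egf, the growth factor made in this segment and the distal tubule, stood at 496, 504 and 426 CPM in CCNE-TA 1, 2 and 3 and 825, 1108 and 668 CPM in TA 1, 2 and 3 (-0.87 ± 0.25; edgeR adjusted p = 0.999, unadjusted p = 0.00714; DESeq2 with the block, adjusted p = 4.76e-05), with the groups apart. Umod, uromodulin, whose levels are given above, differed by -0.63 ± 0.29 (edgeR unadjusted p = 0.0556), CCNE-TA 1 lying above TA 1; 19.5% of its exon bases are shared with Gm44588. Casr, the calcium-sensing receptor, stood at 7.90, 8.76 and 8.36 against 9.59, 13.4 and 9.31 CPM (-0.37 ± 0.23).

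In the proximal tubule, the marker with the largest separation was an organic anion transporter. Slc22a8, the basolateral transporter OAT3, stood at 811, 762 and 647 CPM in CCNE-TA 1, 2 and 3 and 1372, 1382 and 1548 CPM in TA 1, 2 and 3. Every CCNE-TA library was below every TA library, and the spread within each group was small beside the gap. The log2 fold change was -0.95 ± 0.22 (edgeR adjusted p = 0.999, with the block 0.219, DESeq2 adjusted p = 0.000413). Slc22a6, the related OAT1, stood at 219, 238 and 391 against 279.6, 366 and 891 CPM with overlap (-0.86 ± 0.44; DESeq2 with the block, adjusted p = 0.016). Of the 20 tested markers of the early segments, Slc22a8 was the 1 with groups apart and the 1 at an unadjusted edgeR p under 0.05. Of all tested genes, 2.68% and 0.682% were lower by these counts. The median of the list was -0.13 (-0.31 without TA 1). Lrp2, the megalin receptor, differed by -0.13 ± 0.28 and Slc34a1, the phosphate transporter, by -0.03 ± 0.50.

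The medians of other segments and cell types follow. The median was -0.20 over 13 markers of the straight proximal tubule (-0.47 without TA 1), -0.07 over 7 of the distal convoluted tubule, -0.01 over 14 of the connecting tubule and principal cells, -0.11 over 11 of intercalated cells, -0.01 over 12 of podocytes and 0.04 over 14 of endothelium. Pvalb, parvalbumin of the distal convoluted tubule, was the 1 gene of these lists besides Vegfa of the podocyte list whose groups were apart: it stood at 29.5, 37.6 and 23.1 CPM in CCNE-TA 1, 2 and 3 and 53.1, 78.9 and 38.1 CPM in TA 1, 2 and 3 (-0.91 ± 0.29, edgeR unadjusted p = 0.0115; DESeq2 with the block, adjusted p = 0.000306). For the connecting tubule, intercalated, podocyte and endothelial lists, 0 members had an unadjusted edgeR p under 0.05 and DESeq2 called 0. Of the 13 straight proximal tubule markers, 2 had an unadjusted edgeR p under 0.05 with lower values (0.682% of all tested genes). In that list 10 of 13 had a log2 fold change below 0, as did 7516 of all 15247 tested genes, and DESeq2 called 0. Kap, an androgen-regulated protein of the proximal tubule, stood at 13574, 15136 and 28881 against 34856, 25675 and 63131 CPM. Its levels were higher in libraries 3 of each genotype, and the log2 difference within numbers was -1.36, -0.76 and -1.13 (-1.08 ± 0.14 with the block, edgeR adjusted p = 0.196).

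Transcripts typical of lung made up part of the lower genes. This list of 10 was added after the values were seen. All 9 that were tested had a log2 fold change below 0, as did 7516 of all 15247 tested genes. Groups were apart with lower values for 5 (2.68% of all tested genes), and the median was -1.40. Sftpc, surfactant protein C, stood at 6.12, 3.53 and 3.62 CPM in CCNE-TA 1, 2 and 3 and 41.7, 11.9 and 9.35 CPM in TA 1, 2 and 3 (-2.25 ± 0.56; edgeR adjusted p = 0.999, DESeq2 adjusted p = 0.00804), Sftpa1 at 0.639, 0.463 and 0.512 against 5.59, 2.29 and 1.48 CPM and the club cell protein Scgb1a1 at 20.9, 12.3 and 12.8 against 81.7, 30.0 and 26.6 CPM (DESeq2 with the block, adjusted p = 7.67e-08). TA 1 was the highest library for 8 of the 9, and without it the median was -0.77. Napsa, which kidney also expresses, stood at 12151, 10492 and 4831 against 12385, 10246 and 5771 CPM and overlapped. Lung libraries are part of the same series, and whether their RNA or reads entered the kidney libraries was not tested.

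Of the other lower genes with the largest fold changes, Gm6300, a transcribed pseudogene, stood at 0.776, 1.45 and 3.39 CPM in CCNE-TA 1, 2 and 3 and 8.703, 9.28 and 7.695 CPM in TA 1, 2 and 3 (-2.18 ± 0.48; edgeR adjusted p = 0.999, DESeq2 adjusted p = 0.00255), and reads from similar copies may be counted in it. Nkain1, which interacts with the sodium pump, stood at 17.3, 18.5 and 12.5 against 37.3, 54.3 and 21.4 CPM (-1.23 ± 0.32). Slitrk6, a neuronal transmembrane protein, stood at 2.28, 1.504 and 2.59 against 4.97, 3.57 and 7.695 CPM (-1.34 ± 0.38). Selenbp2, Tnfsf15 and 1700055N04Rik differed by -0.93, -1.10 and -1.01, with groups apart. None of these passed edgeR's adjusted threshold, while DESeq2 with the block gave adjusted p-values of 4.02e-05 for Nkain1 and 0.036 for Selenbp2.

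Metabolic and stress lists were near the median of all genes. The median was -0.11 over 25 genes of fatty acid oxidation (21 below 0), 0.08 over 15 of glycolysis, 0.13 over 24 of cholesterol synthesis, -0.01 over 22 of the unfolded protein and heat shock response and -0.03 over 13 secreted factors of senescence. In these lists edgeR called 0, DESeq2 called 0, and 2 genes of cholesterol synthesis and 0 of the others had an unadjusted edgeR p under 0.05. Among 20 NRF2 targets and glutathione genes, Gsta1, a glutathione S-transferase, stood at 4.66, 3.903 and 1.54 CPM in CCNE-TA 1, 2 and 3 and 1.24, 0.988 and 0.268 CPM in TA 1, 2 and 3 (1.99 ± 0.61, edgeR unadjusted p = 0.00958) with groups apart, while Gclc, the limiting enzyme of glutathione synthesis, stood at 233, 186 and 166 against 371, 343 and 198 CPM (-0.64 ± 0.27). Among 17 oncofetal and surface markers, Ly6d stood at 12.5, 12.2 and 27.8 against 6.08, 7.66 and 5.86 CPM (1.42 ± 0.34), highest in CCNE-TA 3. DESeq2 with the block gave adjusted p-values of 0.00957 for Gsta1, 0.0449 for Gclc and 0.00736 for Ly6d.

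The same comparison was then set beside liver, whose CCNE-TA and TA groups had the same labels and number of libraries. The difference of the genotype effects was tested in 1 fit of all 18 libraries. Xist had a log2 fold change of 1.84 in liver against -0.58 in kidney, and the part of sex in the tissue differences was not tested. Of 17155 genes, edgeR called 814 higher in kidney than in liver (4.74%) and 820 lower (4.78%). Of the 1602 such genes that were tested in kidney on its own, 1507 had a kidney log2 fold change nearer 0 than that of liver. These genes were picked because the effects differed, so the count was partly fixed by the selection and does not describe all tested genes. The number called depended on single kidney libraries: it was 206 and 190 without CCNE-TA 2, 325 and 328 without TA 1, and 391 and 470 without TA 3.

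Of 25 mitotic genes, this test called the kidney effect higher for 0 and lower for 1, and of 53 spindle genes for 0 and 1, where 4.74% and 4.78% of all genes were called. These counts are near or below those shares and do not show that the tissues were alike. The liver medians of both lists were 2.19 and 1.94. Ccne1 had a log2 fold change of 6.86 in liver and 4.61 in lung against 8.45 in kidney. Its kidney minus liver difference was 1.60 ± 0.63 (edgeR adjusted p = 0.109) and its kidney minus lung difference 3.82 ± 0.64 (edgeR adjusted p = 0.116), so neither passed. Ccnb1 had a log2 fold change of 2.89 in liver and Cdk1 one of 3.09, and their differences of 0.24 ± 0.78 and -0.36 ± 0.75 had edgeR adjusted p-values of 0.893 and 0.806. Cdkn1a had 3.09 in liver and 0.47 in lung, and AA465934 4.03 and 2.31. The kidney minus liver difference was -0.09 ± 0.93 for Cdkn1a (edgeR adjusted p = 0.989) and -1.51 ± 0.63 for AA465934 (edgeR adjusted p = 0.125).

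Of the p53 targets, 5 of 38 had a lower effect in kidney and 1 a higher one. Phlda3 had a log2 fold change of 3.48 in liver against 1.17 in kidney (difference -2.31 ± 0.32, edgeR adjusted p = 0.0022). The death receptor Tnfrsf10b had 2.67 against 0.05 (difference -2.61 ± 0.38, edgeR adjusted p = 0.00276) and Bax 1.75 against 0.25 (difference -1.49 ± 0.21, edgeR adjusted p = 0.00239). For Tnfrsf10b and Bax the kidney groups overlapped, whereas for Phlda3 they were apart. Of 20 NRF2 and glutathione genes 7 had a lower effect in kidney and 1 a higher one, and of 17 oncofetal and surface markers 7 had a lower one.

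Endothelial markers were the list with the largest share of higher effects in kidney, 6 of 14, with values near 0 in kidney and below 0 in liver. Kdr, the VEGF receptor, had -2.33 in liver and 0.01 in kidney (difference 2.36 ± 0.45, edgeR adjusted p = 0.00938), and Pecam1 -1.12 and 0.14 (difference 1.27 ± 0.27, edgeR adjusted p = 0.0138). In kidney Kdr stood at 24.9, 47.4 and 37.8 CPM in CCNE-TA 1, 2 and 3 and 29.6, 37.5 and 42.5 CPM in TA 1, 2 and 3, with the groups overlapping. Stard4, a cholesterol carrier, had -3.77 in liver and 0.40 in kidney (difference 4.18 ± 0.52, edgeR adjusted p = 0.00122).

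**Figure D5:**
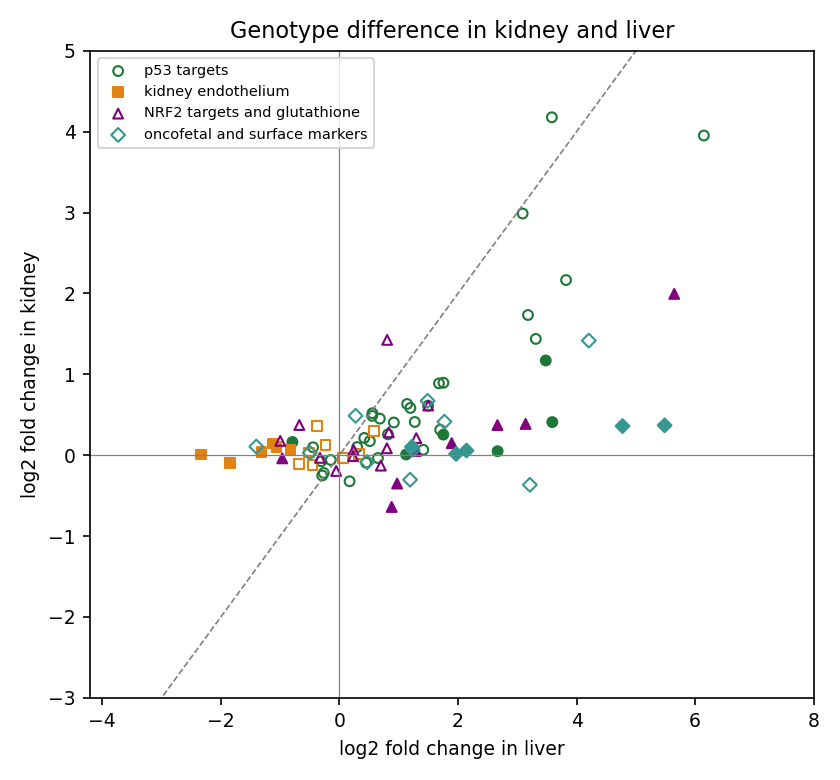
Log2 fold change of CCNE-TA against TA in liver (horizontal) and kidney (vertical) for genes of 4 lists tested in both tissues, with the dashed line marking equal values and filled symbols marking an edgeR adjusted p under 0.05 for the difference. Most filled symbols lie near 0 in kidney, on the right of 0 for p53, NRF2 and oncofetal genes, apart from 1 p53 and 1 NRF2 symbol, and on the left for endothelium. Psca of the oncofetal list, with a kidney minus liver difference of -8.28, is not shown.

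Against lung, 0 genes had a higher effect in kidney (0%; 368 at an unadjusted edgeR p under 0.05) and 1 a lower effect (0.00583%; 81 at an unadjusted p under 0.05). DESeq2 called 114 and 6. The 1 gene was Psca, a surface antigen of stem and epithelial cells, which stood in kidney at 72.8, 63.3 and 131 CPM in CCNE-TA 1, 2 and 3 and 66.9, 60.1 and 63.2 CPM in TA 1, 2 and 3, a log2 fold change of 0.49 ± 0.27 against 7.09 in lung. Its kidney minus lung difference was -6.62 ± 0.57 (SE; edgeR adjusted p = 0.000204), and only CCNE-TA 3 was clearly above the other kidney libraries.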

How the data were processed

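RNA from whole kidney, 3 libraries labelled CCNE-TA and 3 labelled TA, was used at 100 to 200 ng for TruSeq RNA version 2 libraries, per the labels' protocols; this kit keeps no strand information. Values are raw read counts per gene in a table deposited by the authors. The submitters' processing notes name TopHat2 2.0.14, Bowtie2 2.2.6, featureCounts 1.4.6 of the Subread package and mm10. The gene annotation and the strand setting of the counting are not given in the sources used here. Of the counts from 1 to 20, 68.0% to 71.2% per library were even, and whether both reads of a pair were counted was not tested.

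Counts were tested with edgeR 4.0.16 in R 4.3.3 (filterByExpr, TMM factors, robust quasi-likelihood fit, Benjamini-Hochberg adjustment over all 15247 tested genes, threshold 0.05) on the 6 kidney libraries. Kidney was set against liver and lung by the difference of genotype effects in 1 fit of all 18 libraries. The scripts were tested on simulated data. Alternatives were the replicate block, DESeq2 1.42.0, limma-voom 3.58.1, other scalings and filters, a fit of all libraries, Xist-derived sex as a covariate and leaving out each library. For the tissue comparisons, a fit of only the tissues compared was also run. DESeq2 with the block, a fit of the female libraries and list counts without CCNE-TA 1 or TA 1 were added after seeing the data. Libraries of equal number correlated at 0.288, 0.453 and 0.325 in their deviations from the group means, and those of unequal number at -0.264 to -0.106. The numbers were used only for the block fits and for the differences within numbers. The main fit, the list counts and the tissue comparisons did not use them. The labels do not state that equal numbers mark paired libraries.

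The compared genes and the 45 gene lists were chosen with earlier results of these data known, and a lung list was added after seeing the data. Named genes are Ccne1, every called gene, the genes with the largest change, up to 10 per direction (groups apart, unadjusted p under 0.01, mean log2 CPM of at least 1), up to 4 members per list by p with the first 2 as written, and up to 8 genes per tissue comparison. Lrp2, Slc34a1, Cdk2, Fbxw7, Cul1, Trp53, Bax, Bbc3, Aen, Plk2, Gtse1, Ckap2, Ccng1, Zmat3, Tnfrsf10b, Plk1, Aurka, Bub1, Nek2, Ccna2, Ube2c, Cit, Kif4, Rrm2, Spp1, Cxcl10, Fgg, Col4a2, Sftpa1, Napsa, Shcbp1, Dscaml1, BC021614, 1190002F15Rik and the vitamin D and mitochondrial genes of the closing section were named after their values were seen. Some genes are not reported here. Promoter sequences and gene positions are from RefSeq, GRCm38.p6. Groups are called apart when no CCNE-TA value lies within the range of TA and all lie on 1 side of it.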

Additional observations from a re-analysis of the deposited data

Results flagged for a closer look

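The genotype effect differed between kidney and liver, by the test of the difference in 1 fit of all 18 libraries (edgeR adjusted p under 0.05), for 23 of the genes named here, and between kidney and lung for 1. In kidney the groups were apart for Phlda3, Gsta1, C3, Cox6b2, Stard4 and Pfkl, with higher values in CCNE-TA, and for Nkain1, Sftpa1 and Sftpc, with lower ones. They overlapped for the other 14.

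In 6 genes that were the first by p, with no list behind them, the kidney minus liver difference in log2 fold change was below 0: Gipc2 at -4.62, Mtmr11 at -3.67, Spint1 at -2.32, Ccdc120 at -3.57, Myo7b at -5.70 and Bex4 at -4.48. In kidney these genes had log2 fold changes between -0.31 and 0.18, while in liver they lay between 2.39 and 5.38. Other genes share 37.8% of the exon bases of Mtmr11 and 20.9% of those of Gipc2, so some of their reads may belong to those genes. Myo7b, an unconventional myosin of brush borders, stood in kidney at 51.3, 43.0 and 62.8 CPM in CCNE-TA 1, 2 and 3 and 53.9, 58.04 and 67.02 CPM in TA 1, 2 and 3, a level that did not separate the genotypes.

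Among p53 targets the difference was -2.31 for Phlda3, -1.49 for Bax and -2.61 for Tnfrsf10b. It was -3.64 for the glutathione transferase Gsta1, -1.51 for Gclc, -4.01 for Cox6b2, -8.28 for Psca and -2.61 for Nkain1. The surfactant genes Sftpa1 and Sftpc had differences of -4.03 and -2.40. Differences above 0 were found for the cholesterol carrier Stard4 (4.18), complement C3 (2.44), the endothelial genes Pecam1 (1.27), Cdh5 (1.17) and Kdr (2.36), the D-type cyclin Ccnd2 (2.07) and the glycolytic enzyme Pfkl (1.06). Against lung, Psca had a kidney minus lung difference of -6.62.

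Of the differences from liver, those of Cdh5, Gsta1, Ccnd2, Sftpc, C3 and Gclc lost their call when a single kidney library was left out. Without CCNE-TA 2 the edgeR adjusted p was 0.0940 for Cdh5, 0.0632 for Gsta1, 0.0626 for Ccnd2, 0.119 for Sftpc, 0.0663 for C3 and 0.0662 for Gclc, and without TA 1 it was 0.0733, 0.0697, 0.0632, 0.144, 0.0698 and 0.0620 for the same genes. Calls were also lost for Sftpc without CCNE-TA 3 (0.0927), for Gsta1 without TA 2 (0.0518), for Cdh5 without TA 3 (0.0625), and for C3 without CCNE-TA 1 (0.0761), TA 2 (0.0572) or TA 3 (0.0877). Among the genes checked, a fit of the kidney and liver libraries alone lost 2 calls, gained 2 and left 24 genes as they were.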

How the results depend on the processing

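The rise of Ccne1 passed under every alternative run. In edgeR with the replicate block, 3 genes were called higher in place of 2, and the block changed no other edgeR call. DESeq2 called 24 higher and 4 lower, DESeq2 with the block 48 and 47, and the female libraries alone 1 higher. DESeq2 with the block called 23 named genes that DESeq2 alone did not, whose adjusted p-values stand in their passages, and lost Dscaml1. Leaving out single libraries gave 1 to 2 genes higher. The median of the licensing list then ranged from 0.25 to 0.47 and that of the lung list from -1.66 to -0.77. Without CCNE-TA 1, the members at an unadjusted p under 0.05 were 17 of the spindle list, 3 of the injury list and 4 of the licensing list. For the difference from liver DESeq2 called 1265 genes higher and 1769 lower, and leaving out single libraries gave 206 to 1029 higher and 190 to 924 lower. For the difference from lung DESeq2 called 114 and 6. The cause of these differences was not tested.

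Some log2 fold changes that edgeR did not call turned in sign. On leaving out single libraries they ranged from -0.12 to 0.20 for Pcna, -0.14 to 0.17 for Trp53, -0.18 to 0.23 for Tnfrsf10b, -0.00016 to 2.01 for H2-Ab1, -0.22 to 1.37 for Spp1, -0.50 to 0.21 for Havcr1, -0.38 to 0.014 for Lrp2, -0.67 to 0.35 for Slc34a1, -0.30 to 0.25 for Napsa, -0.22 to 0.22 for Kdr, -0.068 to 0.19 for Cdh5, -0.21 to 0.16 for Cyp24a1, -0.053 to 0.14 for Mtmr11, -0.042 to 0.12 for Spint1, -0.078 to 0.55 for Ccdc120 and -0.31 to 0.15 for Bex4. The lowest values of H2-Ab1 and Spp1 were those without CCNE-TA 1. The kidney minus liver difference, not called for Ccnb1 and Cdkn1a, then ranged from -0.027 to 0.49 for Ccnb1 and from -0.37 to 0.22 for Cdkn1a. Kdr was at -0.023 with the replicate block, -0.018 with limma-voom and -0.026 with DESeq2 and the block. With scaling by total counts only, Slc34a1 was at 0.020 and Cyp24a1 at 0.036. In the female libraries alone Spint1 was at -0.11 and Cyp24a1 at 0.28. With 3 libraries per group, no exact test of a single gene can give a p under 0.1, and genes at a few counts per library, such as BC021614, are limited by counting error.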

Other observations

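Genes of vitamin D metabolism, picked after their values were seen, differed in part. Cyp27b1, the kidney enzyme that makes active vitamin D, stood at 18.4, 43.7 and 16.8 CPM in CCNE-TA 1, 2 and 3 and 6.48, 14.1 and 3.98 CPM in TA 1, 2 and 3. The groups were apart, and within each number the CCNE-TA library was the higher. The log2 fold change was 1.67 ± 0.51 (edgeR adjusted p = 0.999, with the replicate block 0.0766; DESeq2 with the block, adjusted p = 7.73e-11). Gc, the vitamin D binding protein, stood at 375, 292 and 79.4 against 70.3, 120 and 51.7 CPM, with CCNE-TA 3 within the range of TA (1.63 ± 0.54). Cyp24a1, which degrades vitamin D, and its receptor Vdr overlapped (-0.03 ± 0.24 and -0.25 ± 0.19).

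Several other genes had groups apart, again picked after their values were seen. Dscaml1, an adhesion molecule, stood at 2.05, 1.45 and 1.79 CPM in CCNE-TA 1, 2 and 3 and 0.3996, 0.434 and 0.358 CPM in TA 1, 2 and 3 (2.13 ± 0.44; edgeR adjusted p = 0.911, DESeq2 adjusted p = 0.0218, with the block 0.14). 1190002F15Rik stood at 8.95, 5.06 and 8.55 against 1.69, 2.48 and 2.28 CPM (1.80 ± 0.33), and Shcbp1, a protein of the midbody, at 2.83, 1.16 and 2.31 against 0.178, 0.626 and 0.179 CPM (2.57 ± 0.64). Coq10b, a coenzyme Q binding protein of mitochondria, stood at 47.5, 56.96 and 53.8 against 74.4, 86.8 and 81.1 CPM, with all CCNE-TA libraries lower and differences within numbers of -0.65, -0.61 and -0.59 (-0.61 ± 0.16, edgeR unadjusted p = 0.00463). Cox6b2, a subunit of cytochrome c oxidase, stood at 31.5, 24.3 and 19.98 against 13.5, 12.7 and 8.19 CPM (1.14 ± 0.26), and the carboxylesterase Ces2e at 15.3, 34.03 and 28.9 against 7.24, 13.1 and 13.2 CPM (1.22 ± 0.34). Neither passed edgeR's adjusted threshold (adjusted p = 0.999 and 0.999). DESeq2 with the block gave adjusted p-values of 0.0244 for Coq10b, 4.55e-05 for Cox6b2 and 1.10e-05 for Ces2e.

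The clock output factor Hlf stood at 33.8, 80.6 and 54.7 against 74.8, 134 and 107 CPM, with log2 differences within numbers of -1.15, -0.73 and -0.97 but overlap between the groups (-0.90 ± 0.33; DESeq2 with the block, adjusted p = 9.69e-06). Over 18 clock genes the median was -0.25, 1 member had an unadjusted edgeR p under 0.05 and DESeq2 called 0. The time of day at which each animal was killed is not given in the sources used here.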
